A study of Homo sapiens with 8 samples.

Results

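Genes of the integrated stress response and of amino acid supply, 40 in all, were taken by symbol from a count table of 61228 genes, and cover the transcription factor ATF4, its partner factors and a set of the genes it is known to switch on. In the table, 39 of the 40 passed the filter on low counts. The exception was CBS, the first enzyme of transsulfuration, with 0 counts in every library. Its near-identical genomic copy CBSL was also at 0, and the sources used here do not say how reads that match both copies were counted, so the value does not show that the gene is silent.

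All libraries came from MDA-MB-231, a human cell line of triple-negative breast cancer. There were 4 groups of 2 libraries: control cells as monolayers on plastic, ETV1, ETV4 and ETV5 knockout cells as monolayers, control cells in collagen I gels, and knockout cells in collagen I gels. ETV1, ETV4 and ETV5 are the PEA3 group of ETS transcription factors. Guide RNAs were delivered by nucleofection. By their labels, knockout cells received Cas9 and guides against all 3 genes, and control gels received Cas9 and a control guide, while for control monolayers only the control guide is named. If the control monolayers had no Cas9, its effect cannot be told apart from the knockout in monolayers or from the gel in control cells. All cells grew in DMEM/F12 medium with serum and L-glutamine. Before lysis the gels, but not the monolayers, were taken apart with collagenase I at 37 °C, and the gel pellets were frozen. The sources used here do not say whether the cells were a pool or a clone, or whether a group's libraries are separate cultures. The p-values therefore measure only how far these libraries spread, which may be technical. In the test, a gene's spread is drawn largely from the other tested genes, not from its own libraries alone.

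The integrated stress response is the route by which several stresses converge on 1 step of translation. Kinases that sense amino acid shortage, unfolded protein in the endoplasmic reticulum, double-stranded RNA or heme shortage phosphorylate the initiation factor eIF2, which slows general translation while the ATF4 messenger RNA is translated more. ATF4, usually as a dimer with a C/EBP-family protein, then switches on genes for amino acid synthesis, uptake and charging onto transfer RNA, and feedback genes such as PPP1R15A and TRIB3. Much of the control of ATF4 is translational, so its transcript level is not its activity.

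The C/EBP-ATF response element is the DNA motif that ATF4 dimers bind, and its core, TGATGNAA, was searched on both strands from 250 bases before to 50 bases after each start site in RefSeq promoter windows (GRCh38.p14). Of the 40 genes, 36 had a window and 13 of these (36.1%) held the core, against 1217 of 27305 genes in the whole RefSeq table (4.46%). By window, the shares were 13 of 58 (22.4%) and 1270 of 35116 (3.62%). The 13 genes were AARS1, ASNS, CEBPG, CHAC1, GARS1, JDP2, MARS1, NARS1, SLC1A4, SLC1A5, SLC38A1, SLC3A2 and SLC7A1. A match is a description of the letters and not a bound site. The 40 genes include known ATF4 targets, so their share is not independent of how they were chosen. Every tested gene of the 40 except NUPR1 had a called change in some pairwise comparison. A called change therefore does not set genes with the core apart from the others. The share of all tested genes called in some comparison was not counted. In single comparisons it went from 9.60% higher and 9.60% lower (knockout in monolayers) to 20.1% higher and 17.9% lower (gel in knockout cells). Stretches around the core are shown for the 6 of them with the smallest adjusted p in any pairwise comparison, to set the motif beside genes whose levels changed, with the core in capitals and the gene's own strand read 5′ to 3′. In SLC3A2 and CHAC1 the core lies on the opposite strand, so the capitals show its reverse complement. The SLC7A1 stretch lies on the minus strand at chr13:29595663-29595692, that of SLC1A5 on the minus strand at chr19:46784893-46784922, and that of SLC3A2 on the plus strand at chr11:62881725-62881748. In each of these the core lies at least in part in an annotated exon, which was not checked for the rest of the stretch. The CHAC1 stretch lies on the plus strand at chr15:40953251-40953280, and its core also lies at least in part in an annotated exon of GENCODE 29. The stretches of CEBPG (plus strand, chr19:33374021-33374112) and SLC38A1 (minus strand, chr12:46266513-46266570) lie outside annotated exons of GENCODE 29. The SLC38A1 core begins at position -4 from its RefSeq start site, so its last bases lie past that site.
SLC7A1: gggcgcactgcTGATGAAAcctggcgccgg
SLC1A5: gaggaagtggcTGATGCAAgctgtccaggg
SLC3A2: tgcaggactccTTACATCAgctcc
CHAC1: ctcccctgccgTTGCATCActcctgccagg
CEBPG: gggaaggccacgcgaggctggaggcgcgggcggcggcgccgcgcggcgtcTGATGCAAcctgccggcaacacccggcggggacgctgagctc
SLC38A1: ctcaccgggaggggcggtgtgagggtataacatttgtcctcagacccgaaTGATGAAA

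Library totals ran from 15824504 to 23896899 counts, and the 40 genes together took 94668 to 146374 of them. As a share of all counts this was 0.613 and 0.628% in control monolayers, 0.584 and 0.581% in knockout monolayers, 0.652 and 0.644% in control gels, and 0.682% in both knockout gels. The groups did not overlap in this share. With 2 libraries a group this says little: DDIT3 also did not overlap in monolayers, at a knockout log2 change of -0.05 that did not pass. Mitochondrial transcripts took 2.65 to 4.47% of a library's counts, and their part in the share was not tested. The labels' check was partial: ETV1 transcripts were lower in knockout cells in monolayers (log2 change -0.50) and gels (-0.66), and so were those of ETV4 (-0.45 and -0.57), while ETV5 differed by 0.03 and 0.02 and did not pass. A transcript level does not show whether the protein is lost. Of the basal markers of the line, VIM was at 5280 to 7400 CPM (library-scaled counts, with TMM factors). The 8 basal markers summed to 9190 to 10100 CPM in control and 8730 to 8770 in knockout monolayers. In gels they summed to 11000 to 11400 CPM in control and 9590 to 9710 in knockout cells. With the knockout, 4 of the 8 were called higher and 4 lower in monolayers, and 4 and 3 in gels. Of 8 luminal markers, ESR1 and PGR had no more than 2 counts, while KRT8 was at 386 to 553 CPM, KRT18 at 287 to 378, EPCAM at 12.9 to 23 and GATA3 at 7.52 to 12.7. The luminal markers summed to 699 to 759 CPM in control and 880 to 922 in knockout monolayers, and to 803 to 830 in control and 955 to 968 in knockout gels. Of the 5 tested, 3 were called higher with the knockout in each culture. Over all tested genes, 9.60% rose and 9.60% fell with the knockout in monolayers, and 11.5% rose and 12.4% fell in gels. The markers of other cell types were low in sum but not all absent. The 9 leukocyte markers summed to 5.91 to 6.58 CPM in knockout gels and 9.5 to 11.9 in control gels, with MS4A1 at 0 counts, LYZ at 24 to 122 and CSF1R at 52 to 101. The 7 endothelial markers summed to 7.23 to 8.65 CPM in knockout gels and 11.2 in control gels, with CLDN5 at 0 counts, CDH5 at no more than 1, PECAM1 at 62 to 186 and KDR at 40 to 116. The 9 fibroblast markers summed to 24.5 to 25.3 CPM in knockout and 18.9 to 19 in control monolayers, with PDGFRA at no more than 2 counts, DCN at no more than 1, PDGFRB at 45 to 133 and COL1A1 at 170 to 335. In gels they summed to 12.3 to 14.3 CPM in knockout and 13.5 to 13.8 in control cells. In monolayers the leukocyte markers summed to 9.84 to 10.2 CPM in knockout and 9.79 to 10.1 in control cells. The endothelial markers summed there to 9.41 to 11.1 CPM in knockout and 12.3 to 12.5 in control cells. The part of these differences in the results was not tested. In such bulk samples, fewer cells of a type and less RNA per cell cannot be told apart.

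Levels per kilobase of exon differed widely among the genes. The mean over the 8 libraries was highest for the neutral amino acid transporter SLC7A5 (151 CPM per kilobase), ATF4 (148) and the glutamine transporter SLC1A5 (111). The lowest levels among tested genes were those of ASNS (0.434 CPM per kilobase), the secreted hormone STC2 (0.155) and the stress cofactor NUPR1 (0.101). STC2 and NUPR1 had at most 27 and 18 counts in any library, so only very large changes in them were detectable. ASNS, asparagine synthetase, is a classic ATF4 target, and its 22 to 60 counts carry a limit of their own: 44.6% of its exon bases are shared on the same strand with the transcript ENSG00000284707, which had 27 to 41 counts. The sources used here do not say how reads in shared exons were assigned.

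**Figure D1:**
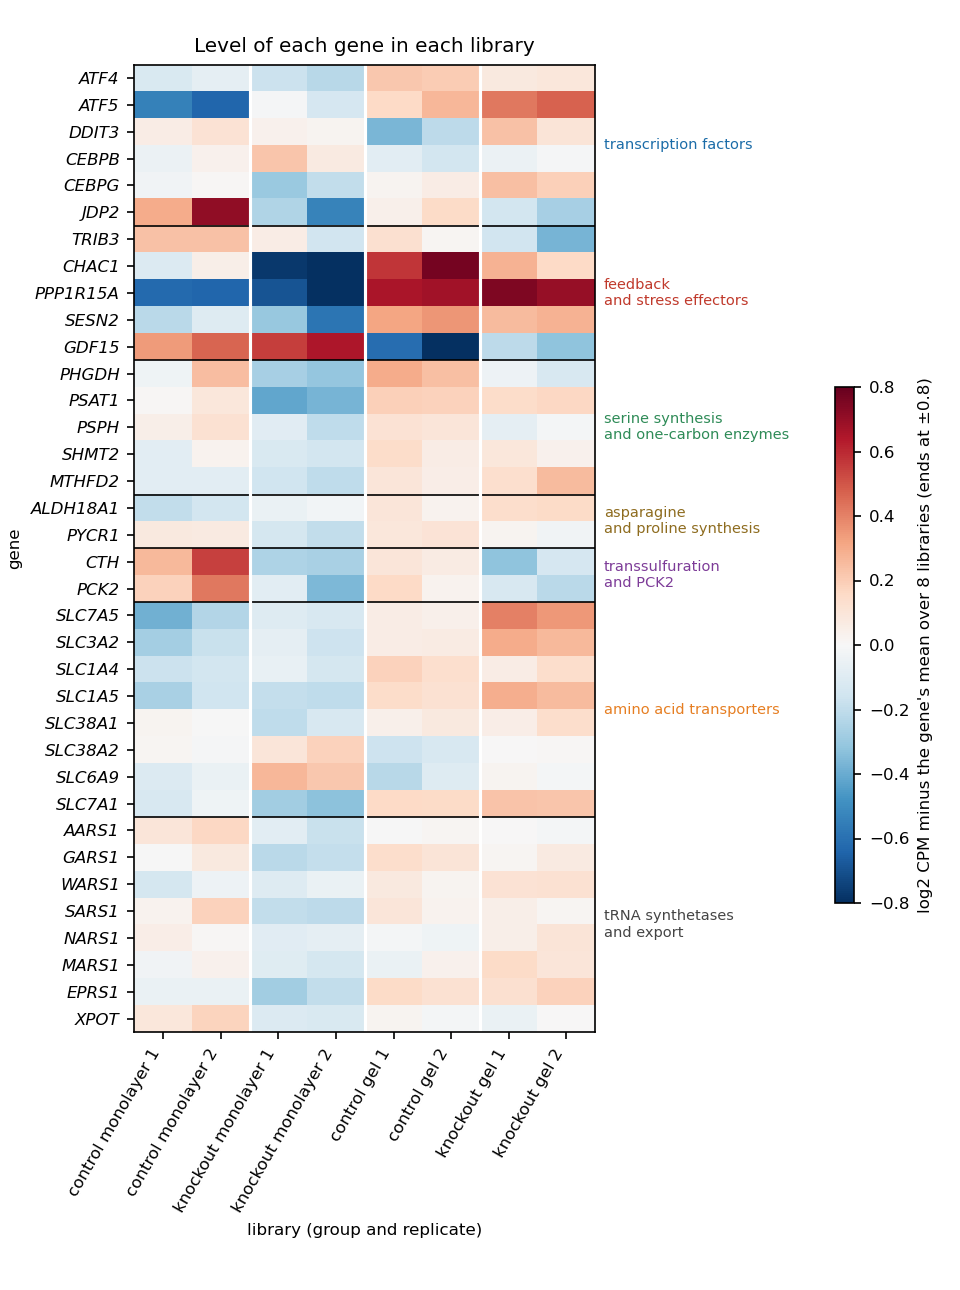
Level of each gene (rows, grouped by role) in each of the 8 libraries (columns), as log2 CPM minus the gene's mean over the libraries. The colour scale ends at ±0.8, and the map holds 36 genes and leaves out 3 tested genes under 3 CPM. CHAC1 and PPP1R15A are palest or blue in monolayers and red in gels, GDF15 shows the opposite, and the tRNA synthetases other than WARS1 are bluest in knockout monolayers.

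In monolayers, the knockout cells had lower transcripts of several amino acid synthesis enzymes, of several cytosolic tRNA synthetases and of the stress effectors CHAC1, TRIB3 and SESN2, but higher transcripts of ATF5 and of the transporters SLC7A5, SLC38A2 and SLC6A9. Of the 39 tested genes, 19 fell and 4 rose at an adjusted p under 0.05, where 9.60% of all tested genes fell and 9.60% rose. The median log2 change was -0.18, against 0.01 for all tested genes. The 19 that fell are spread over every role group. Of the 23 called genes, 14 passed under all 16 alternatives tried, and the number of rises was 2 without control monolayer library 1.

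In gels, 8 of the 39 genes were higher in the knockout cells and 6 lower, where 11.5% of all tested genes rose and 12.4% fell. The median log2 change was 0.02, against 0 for all tested genes. The 8 rises were ATF5, DDIT3, CEBPG, GDF15, SLC7A5, SLC3A2, SLC1A5 and SLC38A2, and the 6 falls were ATF4, TRIB3, CHAC1, PHGDH, CTH and PCK2. PHGDH, SLC3A2 and SLC7A5 passed under all 16 alternatives. The count of 14 called genes was 5 without control gel library 1, 7 without control gel library 2, 8 without knockout gel library 1, 9 without knockout gel library 2 and 8 with DESeq2. A correction for gene length and GC content, chosen after seeing the data, gave 13 rises in place of 8. With it the median log2 change was 0.03 for the 39 genes and 0.02 for all genes in that fit.

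The knockout comparisons in monolayers and in gels share no library. The calls went down in both cultures for 5 of the 39 genes (TRIB3, CHAC1, PHGDH, CTH and PCK2), up in both for 3 (ATF5, SLC7A5 and SLC38A2) and in opposite directions for CEBPG alone. Of all 15568 tested genes, 760 went down in both, 658 up in both and 74 in opposite directions. A further 13 of the 39 genes fell in monolayers and did not pass in gels, for which the count over all tested genes is not given. Across the 39 genes, the log2 changes in the 2 cultures had a Pearson r of 0.771 and a Spearman rho of 0.798, against 0.456 and 0.409 across all 15568 tested genes. These are correlations across genes, which are not independent replicates. The 39 genes and all tested genes were not matched for expression level.

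**Figure D2:**
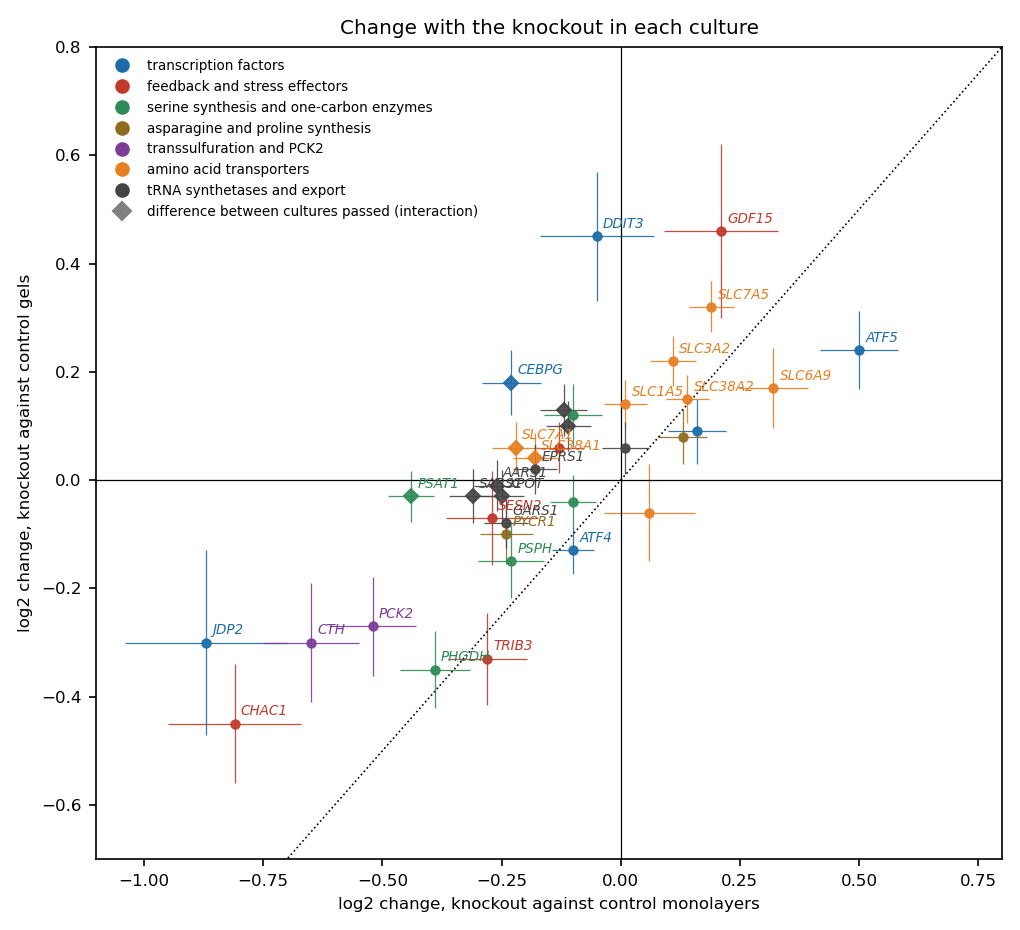
Log2 change with the knockout in monolayers (horizontal axis) and in gels (vertical axis) for 36 genes, coloured by role, with bars of 1 SE. Diamonds mark the 9 genes whose change differed between cultures in the interaction test, and the dotted line marks equal changes. All 9 diamonds lie above the line, and names are given where a gene passed in either culture.

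Whether the knockout effect itself differed between cultures was tested as an interaction, the change in gels minus the change in monolayers. It passed the test in the positive direction for 9 of the 39 genes and in the negative direction for 0, where 2.67% of all tested genes were higher and 3.94% lower. At an unadjusted p under 0.05 edgeR counted 17 higher and 1 lower, and DESeq2 called 7 higher and 0 lower after adjustment. The 9 were PSAT1, CEBPG, SLC7A1, SARS1, AARS1, MARS1, SLC38A1, XPOT and NARS1, of which 5 belong to the 8 tRNA synthetase and export genes. PSAT1 and CEBPG passed under all 16 alternatives. The count was 5 without control monolayer library 2, 3 without control gel library 1 and 3 without control gel library 2, and 16 with the length and GC correction. With that correction the median interaction was 0.23 for the 39 genes and 0.01 for all genes in that fit. Without it the medians were 0.2 and -0.02. Over all tested genes, the interaction had a Spearman rho of -0.239 with GC content, and the 39 genes had a median GC content of 51.8% against 48% for all.

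In control cells, gels against monolayers gave 16 higher and 6 lower of the 39 genes, where 16.0% of all tested genes rose and 10.7% fell. The median log2 change was 0.04, against 0.01 for all tested genes. With library size alone in place of TMM factors, the split was 10 higher and 13 lower, and the medians were -0.04 for the 39 genes and -0.07 for all. With upper-quartile factors it was 12 higher and 9 lower, and with DESeq2's size factors 13 and 8. Of the small rises, those of SHMT2 and MTHFD2 passed under 3 of the 16 alternatives and those of PSAT1 and WARS1 under 4. By contrast, 11 genes passed under all 16: PPP1R15A, ATF5, CHAC1, SESN2, ATF4, SLC7A5, SLC1A5, SLC3A2, SLC7A1, ALDH18A1 and GDF15, the last of these lower. The total of 22 was 11 without control gel library 1, 14 without control gel library 2 and 13 with DESeq2, and the 6 falls were 2 without control monolayer library 2, 1 without control gel library 1 and 2 without control gel library 2.

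In knockout cells, gels against monolayers gave 24 higher and 4 lower, where 20.1% of all tested genes rose and 17.9% fell. The median log2 change was 0.19, against -0.01 for all tested genes. Of the 28 called genes, 20 passed under all 16 alternatives. The 4 falls were GDF15, CEBPB, SLC38A2 and SLC6A9, and they were 1 without knockout gel library 2 and 2 without knockout monolayer library 1, with DESeq2 or with the length and GC correction. Each comparison of gels with monolayers shares a group of libraries with each knockout comparison.

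The gels were digested before lysis and the monolayers were not, and genes of the dissociation response moved with culture. Their 12 genes summed to 1050 to 1070 CPM in control monolayers, 1080 to 1120 in knockout monolayers, 2530 to 2590 in control gels and 2260 to 2400 in knockout gels. In control cells 8 of the 11 tested rose and 1 fell in gels, where 16.0% of all tested genes rose and 10.7% fell. In knockout cells 7 rose and 2 fell, where 20.1% of all tested genes rose and 17.9% fell. BTG2 was at 0 to 4 counts. ATF3, a stress factor linked to ATF4 and also to early responses, went from a mean of 9.11 to 125 CPM in control cells (log2 change 3.77) and from 6.53 to 154 CPM in knockout cells (4.55). The part of digestion in the gel comparisons was not tested.

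**Figure D3:**
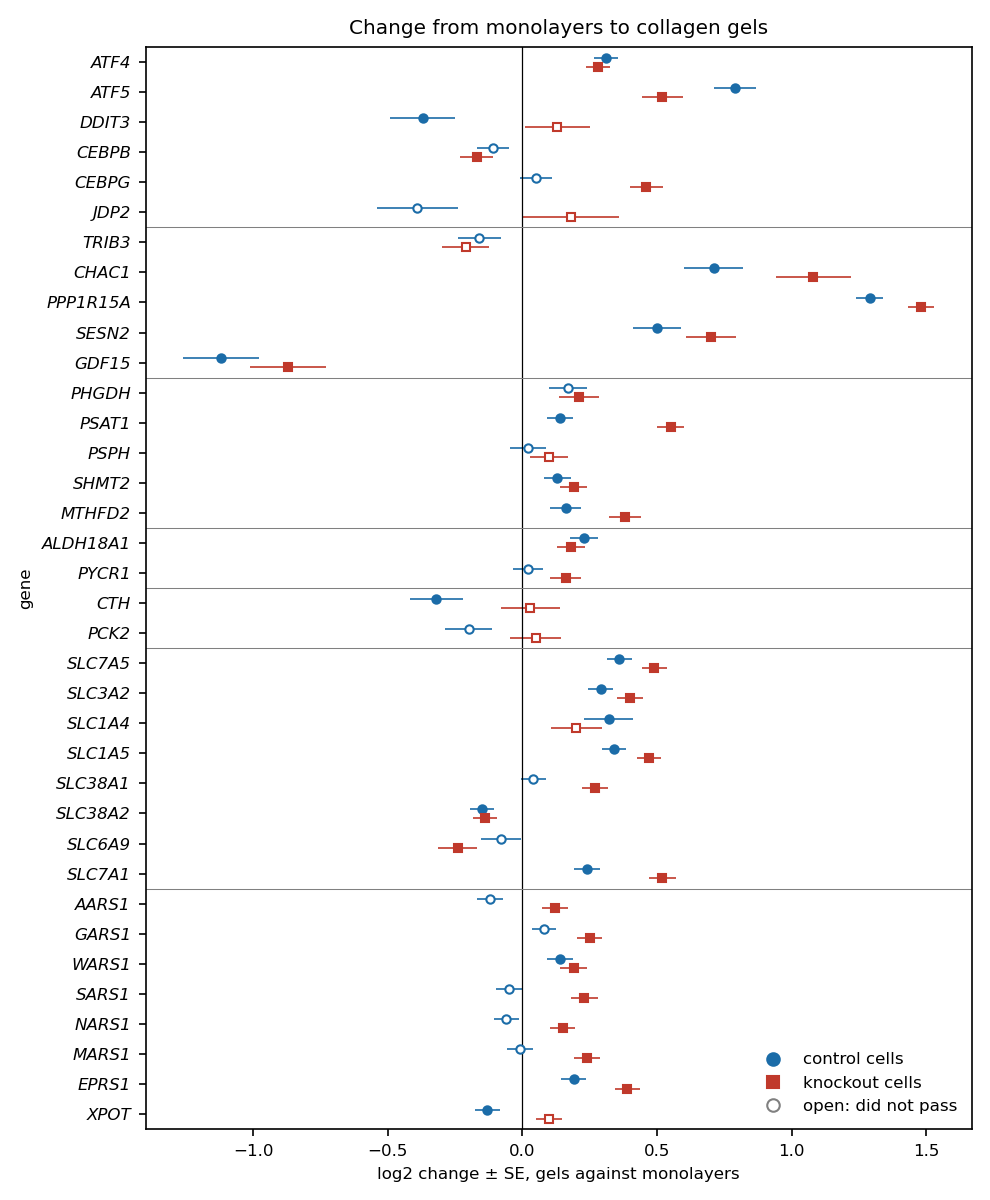
Log2 change from monolayers to gels with bars of 1 SE, for 36 genes, in control cells (blue circles) and knockout cells (red squares). Filled symbols passed the test at an adjusted p under 0.05. PPP1R15A lies farthest to the right at 1.29 and 1.48, GDF15 farthest to the left at -1.12 and -0.87, and among the tRNA synthetases the red squares lie to the right of the blue circles.

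ATF4, the transcription factor at the centre of the response, was at 340 and 352 CPM in control monolayers, 329 and 318 in knockout monolayers, 431 and 426 in control gels, and 391 and 394 in knockout gels. The gel libraries were all above the monolayer libraries, and within each culture the control libraries were above the knockout libraries. The gel difference passed in control cells (log2 change 0.31, SE 0.044, adjusted p = 2.28e-06) and in knockout cells (0.28, SE 0.045, adjusted p = 6.75e-06). The knockout difference was -0.10 in monolayers (SE 0.045, adjusted p = 0.131) and -0.13 in gels (SE 0.044, adjusted p = 0.0338). The second of these passed under 7 of 16 alternatives and not with DESeq2.

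ATF5, a relative of ATF4 that is also controlled at translation, had 23.4 and 21.9 CPM in control monolayers, 33.7 and 30.9 in knockout monolayers, 37.9 and 40.9 in control gels, and 45.5 and 47.1 in knockout gels. It rose with the knockout and with the gel, and no groups overlapped. The knockout change was 0.50 in monolayers (SE 0.081, adjusted p = 1.58e-05) and 0.24 in gels (SE 0.072, adjusted p = 0.0157), the latter lost with DESeq2 and without control gel library 1 or knockout gel library 2. The gel change was 0.79 in control cells (SE 0.078, adjusted p = 1.37e-09) and 0.52 in knockout cells (SE 0.075, adjusted p = 1.13e-06). Of its exon bases, 21.2% overlap NUP62 and 2.5% IL4I1 on the opposite strand. NUP62 had 1902 to 2920 counts, and the sources used here do not say whether counting used strand.

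CEBPG, a C/EBP-family partner of ATF4, moved in opposite directions with the knockout in the 2 cultures. Its levels were 65.1 and 66.9 CPM in control monolayers, 54.1 and 58 in knockout monolayers, 67.4 and 69.1 in control gels, and 78.5 and 75.8 in knockout gels. The knockout change was -0.23 in monolayers (SE 0.062, adjusted p = 0.00642) and 0.18 in gels (SE 0.060, adjusted p = 0.0285), and the interaction was 0.41 (SE 0.087, adjusted p = 0.00201). The gel change in knockout cells was 0.46 (SE 0.062, adjusted p = 3.49e-07), and in control cells it was 0.05 and did not pass. The fall in monolayers was lost without control monolayer library 2 or knockout monolayer library 1. The rise in gels was lost with DESeq2 and without control gel library 1, control gel library 2 or knockout gel library 1.

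The pro-apoptotic factor DDIT3 (CHOP) was at 10.9 and 11.3 CPM in control monolayers, 10.7 and 10.6 in knockout monolayers, 8.11 and 9.04 in control gels, and 12.3 and 11.2 in knockout gels. The control gels were lowest, below control monolayers by a log2 change of -0.37 (adjusted p = 0.0208), a call lost with DESeq2 and without control monolayer library 1, control monolayer library 2 or control gel library 1. In gels it was higher in knockout cells (log2 change 0.45, SE 0.12, adjusted p = 0.0057), a call lost without control gel library 1 or knockout gel library 1. DDIT3 shares 27.2% of its exon bases with MARS1 on the opposite strand, and MARS1 had 3216 to 5060 counts against 165 to 272 for DDIT3.

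JDP2, a repressor that can pair with ATF-family factors, was at 7.44 and 9.92 CPM in control monolayers and 5.13 and 4.19 in knockout monolayers, a log2 change of -0.87 (SE 0.17, adjusted p = 0.000193). In gels it was at 6.24 and 6.74 CPM in control and 5.47 and 5.04 in knockout cells, and the log2 change of -0.30 did not pass. CEBPB, another C/EBP factor, ranged from 75.4 to 97.7 CPM, and its 1 call was a fall of 0.17 on the log2 scale from knockout monolayers to knockout gels (adjusted p = 0.021). That call was lost with DESeq2, with the length and GC correction, and without knockout monolayer library 1, knockout gel library 1 or knockout gel library 2. NUPR1 passed in no comparison, with 7 to 18 counts a library. Of the 7 transcription factors, then, 1 rose and 2 fell with the knockout in monolayers, and 3 rose and 1 fell in gels. Of all tested genes, 9.60% rose and 9.60% fell in monolayers, and 11.5% rose and 12.4% fell in gels. DESeq2 called 1 rise and 0 falls among the 7 in gels.

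**Figure D4:**
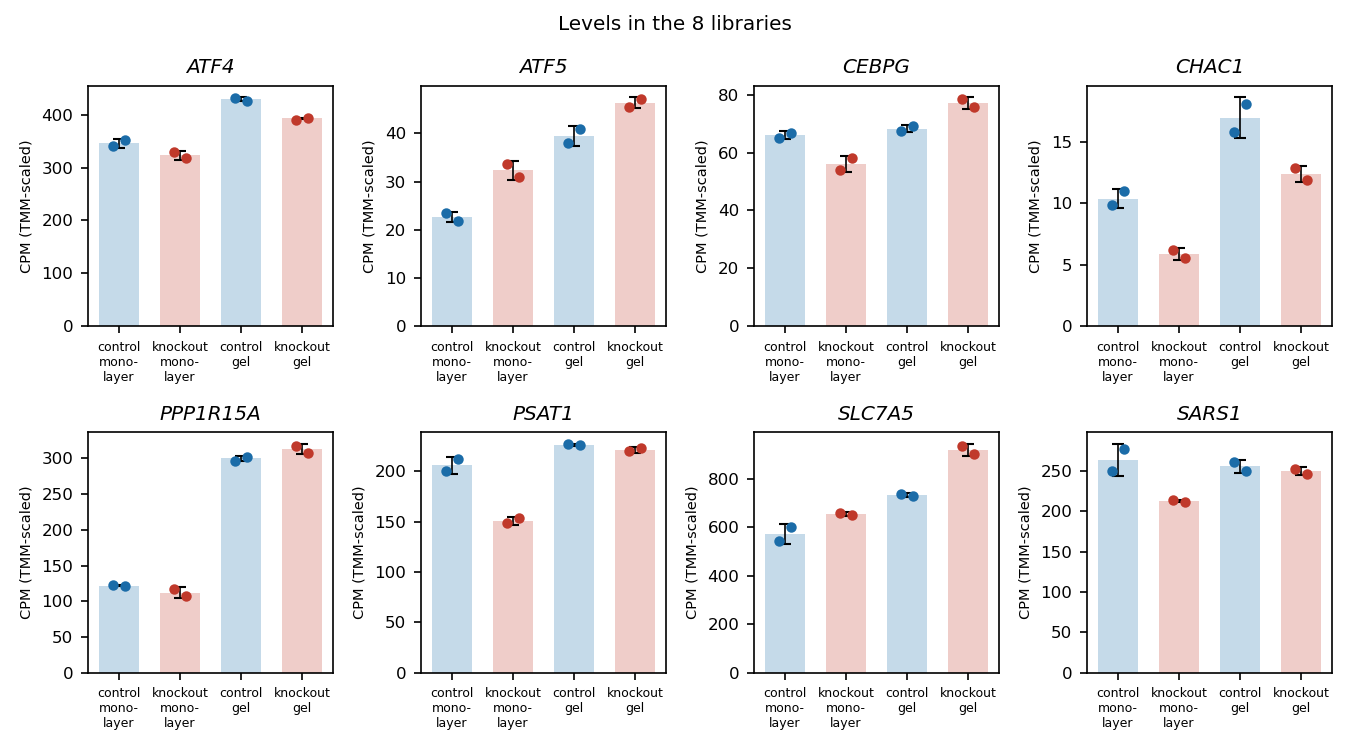
CPM of 8 genes in the 8 libraries (points), with the group mean (bars) and SD (error bars, n = 2), in control (blue) and knockout (red) cells. Axes start at 0. PPP1R15A separates gels from monolayers, PSAT1 and SARS1 are low in the knockout monolayers alone, and SLC7A5 and ATF5 step up with both the knockout and the gel.

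Among the feedback and stress effectors, PPP1R15A (GADD34) had the smallest adjusted p of the 39 genes in both comparisons of gels with monolayers. It encodes the subunit that brings phosphatase to eIF2 and so ends the response. Its levels were 123 and 122 CPM in control monolayers, 117 and 107 in knockout monolayers, 297 and 302 in control gels, and 318 and 307 in knockout gels. The log2 change from monolayers to gels was 1.29 in control cells (SE 0.050, adjusted p = 1.1e-20) and 1.48 in knockout cells (SE 0.050, adjusted p = 2.82e-22). The knockout changes of -0.13 and 0.06 did not pass. Its paralog PPP1R15B, which serves the same phosphatase without stress, changed by 0.25 (adjusted p = 0.000446) and 0.33 (adjusted p = 8.31e-06) with the gel.

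CHAC1, an enzyme that degrades glutathione, fell with the knockout and rose with the gel. It was at 9.85 and 11 CPM in control monolayers, 6.22 and 5.56 in knockout monolayers, 15.8 and 18.1 in control gels, and 12.9 and 11.9 in knockout gels. No groups overlapped. The knockout change was -0.81 in monolayers (SE 0.14, adjusted p = 3.58e-05) and -0.45 in gels (SE 0.11, adjusted p = 0.00298), the latter lost without control gel library 2 or knockout gel library 2. The gel change was 0.71 (SE 0.11, adjusted p = 1.24e-05) in control and 1.08 (SE 0.14, adjusted p = 1.01e-07) in knockout cells.

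TRIB3, a pseudokinase that restrains ATF4, had 37.4 CPM in both control monolayers, 33.1 and 28.5 in knockout monolayers, 34.7 and 32.1 in control gels, and 28.6 and 24.5 in knockout gels. Knockout libraries lay below the control libraries of the same culture. The log2 changes were -0.28 (SE 0.083, adjusted p = 0.0148) and -0.33 (SE 0.085, adjusted p = 0.0037). The first was lost with DESeq2 and without control monolayer library 1, control monolayer library 2 or knockout monolayer library 2, and the second without control gel library 1 or knockout gel library 2.

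SESN2, a leucine sensor that restrains the growth kinase complex mTORC1, rose in gels. Its levels were 19.7 and 21.3 CPM in control monolayers, 18.6 and 15.3 in knockout monolayers, 28.5 and 29.3 in control gels, and 27.3 and 27.8 in knockout gels. The gel changes were 0.50 (SE 0.088, adjusted p = 5e-05) and 0.70 (SE 0.094, adjusted p = 3.15e-07). Its knockout change in monolayers was -0.27 (adjusted p = 0.0464) and passed under 10 of 16 alternatives, not with DESeq2 nor without any 1 of control monolayer libraries 1 and 2, knockout monolayer library 2 and control gel libraries 1 and 2. GDF15, a secreted stress hormone, went the other way, with 10.1 and 11 CPM in control monolayers, 11.7 and 12.5 in knockout monolayers, 5.23 and 4.38 in control gels, and 6.9 and 6.37 in knockout gels. Its gel changes were -1.12 (SE 0.14, adjusted p = 2.45e-07) and -0.87 (SE 0.14, adjusted p = 4.09e-06). In gels its knockout change of 0.46 passed (adjusted p = 0.0289), and was lost with DESeq2 and without control gel library 2, knockout gel library 1 or knockout gel library 2. STC2 fell by 1.21 on the log2 scale with the gel in control cells, at 9 to 27 counts a library, a call lost with DESeq2 and without control monolayer library 2, control gel library 1 or control gel library 2.

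The serine synthesis enzymes convert a glycolytic intermediate to serine in consecutive steps by PHGDH, PSAT1 and PSPH. All 3 fell with the knockout in monolayers. PSAT1 had 200 and 212 CPM in control monolayers, 149 and 154 in knockout monolayers, 227 and 226 in control gels, and 220 and 223 in knockout gels. Only the knockout monolayers stood low. The knockout change was -0.44 in monolayers (SE 0.049, adjusted p = 1.34e-08), the smallest adjusted p of the 39 genes there, and -0.03 in gels (SE 0.047, adjusted p = 0.683). The difference between the cultures was 0.41 (SE 0.068, adjusted p = 0.000104). From monolayers to gels, PSAT1 rose by 0.55 in knockout cells (SE 0.049, adjusted p = 5.53e-11).

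PHGDH, the first enzyme of the route, was at 61.1 and 74.3 CPM in control monolayers, 52 and 50.5 in knockout monolayers, 76.8 and 73.9 in control gels, and 60.9 and 57.4 in knockout gels. Unlike PSAT1, it was lower in knockout cells of both cultures, with log2 changes of -0.39 (SE 0.073, adjusted p = 0.000232) and -0.35 (SE 0.071, adjusted p = 0.000464). The interaction was 0.04 (adjusted p = 0.874). PSPH changed by -0.23 in monolayers (adjusted p = 0.0142), lost with DESeq2 and without control monolayer library 2 or knockout monolayer library 2, and by -0.15 in gels (adjusted p = 0.0996). The mitochondrial one-carbon enzymes SHMT2 and MTHFD2 did not pass with the knockout. In knockout cells they rose with the gel by 0.19 (adjusted p = 0.0021) and 0.38 (adjusted p = 6.16e-06). In control cells their gel changes of 0.13 and 0.16 passed under 3 of the 16 alternatives each.

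In proline synthesis, PYCR1, which makes proline, fell with the knockout in monolayers (log2 change -0.24, SE 0.056, adjusted p = 0.00158) and did not pass in gels (-0.10, adjusted p = 0.173). ALDH18A1, which starts the route from glutamate, did not pass with the knockout, with changes of 0.13 and 0.08, and rose with the gel by 0.23 (adjusted p = 0.000805) and 0.18 (adjusted p = 0.00511). The 2 enzymes of 1 route thus had knockout changes of different sign in monolayers, of which only that of PYCR1 passed. ASNS had 2.41 and 3.41 CPM in control monolayers and 1.93 and 1.36 in knockout monolayers, a log2 change of -0.79 (SE 0.27, adjusted p = 0.0374). That call was lost with DESeq2 and without control monolayer library 2 or knockout monolayer library 2.

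CTH, which makes cysteine from cystathionine, was at 20.6 and 25.2 CPM in control monolayers, 14.5 and 14.4 in knockout monolayers, 18.4 and 18 in control gels, and 13.8 and 15.7 in knockout gels. Knockout libraries were below control libraries in both cultures, with log2 changes of -0.65 (SE 0.10, adjusted p = 1.58e-05) and -0.30 (SE 0.11, adjusted p = 0.0345). PCK2, the mitochondrial enzyme that makes phosphoenolpyruvate, behaved alike in direction, at 40.2 and 47.5 CPM in control monolayers, 33.4 and 27.6 in knockout monolayers, 39.6 and 36.1 in control gels, and 32.5 and 30.5 in knockout gels. Its changes were -0.52 (SE 0.091, adjusted p = 0.000165) and -0.27 (SE 0.091, adjusted p = 0.0344). In gels the call of CTH was lost with DESeq2 and without control gel library 1, control gel library 2 or knockout gel library 1. That of PCK2 was lost with DESeq2, with the length and GC correction, and without control gel library 1 or knockout gel library 2.

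The summed level of the amino acid transporters was 2220 and 2320 CPM in control monolayers, 2370 and 2390 in knockout monolayers, 2550 and 2560 in control gels, and 2890 and 2920 in knockout gels. With the knockout, 3 of 8 rose and 2 fell in monolayers, where 9.60% of all tested genes rose and 9.60% fell. In gels 4 rose and 0 fell, where 11.5% of all tested genes rose and 12.4% fell. For the falls in gels edgeR also counted 0 at an unadjusted p under 0.05 and DESeq2 0.

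SLC7A5 (LAT1) carries leucine and other large neutral amino acids into the cell as a dimer with SLC3A2. SLC7A5 was at 542 and 601 CPM in control monolayers, 659 and 648 in knockout monolayers, 738 and 727 in control gels, and 935 and 899 in knockout gels. Each group lay apart from the others. The knockout change was 0.19 in monolayers (SE 0.047, adjusted p = 0.00311) and 0.32 in gels (SE 0.047, adjusted p = 2.21e-06), and the gel change was 0.36 (SE 0.047, adjusted p = 4.91e-07) in control and 0.49 (SE 0.047, adjusted p = 4.5e-10) in knockout cells. The rise in monolayers was lost without control monolayer library 1 or knockout monolayer library 1.

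SLC3A2 itself had 230 and 245 CPM in control monolayers, 264 and 247 in knockout monolayers, 289 and 290 in control gels, and 341 and 332 in knockout gels. It rose with the knockout in gels (0.22, SE 0.047, adjusted p = 0.00076) and did not pass in monolayers (0.11, adjusted p = 0.119). Its gel changes were 0.29 (SE 0.048, adjusted p = 2.45e-05) and 0.40 (SE 0.048, adjusted p = 4.92e-08). Both chains of the dimer were highest in the knockout gels.

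SLC1A5 (ASCT2), a glutamine importer, was at 305 and 326 CPM in control monolayers, 319 and 316 in knockout monolayers, 403 and 397 in control gels, and 446 and 434 in knockout gels. Monolayers of the 2 genotypes overlapped, and gels stood above them. Its gel changes were 0.34 (SE 0.046, adjusted p = 5.35e-07) and 0.47 (SE 0.046, adjusted p = 5.21e-10). The knockout change in gels was 0.14 (SE 0.045, adjusted p = 0.0243), lost without control gel library 1, control gel library 2 or knockout gel library 1. On the opposite strand, 23.4% of its exon bases overlap ENSG00000275719, which had 30 to 71 counts.

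SLC38A2 (SNAT2), which takes up small neutral amino acids, had 614 and 603 CPM in control monolayers, 649 and 692 in knockout monolayers, 542 and 557 in control gels, and 609 and 612 in knockout gels. It was higher with the knockout in both cultures (0.14, adjusted p = 0.0231, and 0.15, SE 0.045, adjusted p = 0.0121) and lower in gels of both genotypes (-0.15, adjusted p = 0.0139, and -0.14, adjusted p = 0.016). In monolayers the knockout call was lost with no low-count filter and without control monolayer library 1, control monolayer library 2 or knockout monolayer library 2, and in gels without either control gel library. Its relative SLC38A1 had 321 and 316 CPM in control monolayers, 274 and 289 in knockout monolayers, 325 and 333 in control gels, and 328 and 349 in knockout gels. SLC38A1 fell with the knockout in monolayers (-0.18, adjusted p = 0.00545), and its interaction was 0.22 (SE 0.066, adjusted p = 0.0348). The fall was lost without knockout monolayer library 1 and both calls with the length and GC correction. The interaction was also lost without knockout monolayer library 1, control gel library 1, control gel library 2 or knockout gel library 2.

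SLC7A1 (CAT1), the importer of arginine and lysine, had 162 and 173 CPM in control monolayers, 146 and 141 in knockout monolayers, 198 and 197 in control gels, and 207 and 206 in knockout gels. It fell with the knockout in monolayers (-0.22, SE 0.049, adjusted p = 0.00149) and was 0.06 in gels (adjusted p = 0.379). The interaction was 0.28 (SE 0.069, adjusted p = 0.00883), lost without control gel library 1 or control gel library 2. Its gel changes were 0.24 (SE 0.048, adjusted p = 0.000247) and 0.52 (SE 0.049, adjusted p = 2.35e-10). SLC6A9 (GLYT1), a glycine transporter, rose with the knockout in monolayers (0.32, SE 0.072, adjusted p = 0.0012), and SLC1A4 rose in the gels of control cells (0.32, adjusted p = 0.00901), a call lost with library size alone, with DESeq2 and without control monolayer library 1 or control gel library 1.

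The cytosolic aminoacyl-tRNA synthetases charge transfer RNA with its amino acid, and XPOT exports transfer RNA from the nucleus. Together the 8 summed to 2050 and 2140 CPM in control monolayers and to 1830 in both knockout monolayers. In gels they summed to 2130 and 2100 CPM in control cells and 2120 and 2140 in knockout cells. In monolayers 5 of 8 fell with the knockout and 0 rose, where 9.60% of all tested genes fell and 9.60% rose. In gels 0 passed, where 11.5% of all tested genes rose and 12.4% fell. At an unadjusted p under 0.05, 2 were higher and 0 lower there, and DESeq2 made 0 calls. For the rises in monolayers edgeR also counted 0 at an unadjusted p under 0.05, and DESeq2 0. In knockout cells 7 of 8 rose from monolayers to gels, where 20.1% of all tested genes rose and 17.9% fell. Of 16 other cytosolic synthetase and scaffold genes, 11 rose and 0 fell in that comparison.

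SARS1, which charges serine, was at 250 and 278 CPM in control monolayers, 214 and 212 in knockout monolayers, 262 and 250 in control gels, and 253 and 247 in knockout gels. The knockout monolayers stood below all 6 other libraries. The knockout change was -0.31 in monolayers (SE 0.050, adjusted p = 1.85e-05) and -0.03 in gels (adjusted p = 0.689), with an interaction of 0.27 (SE 0.070, adjusted p = 0.0123) that was lost without control monolayer library 2 or control gel library 2. AARS1, for alanine, had 268 and 281, 237 and 222, 250 and 254, and 252 and 248 CPM in the same order of groups. Its monolayer change was -0.26 (SE 0.047, adjusted p = 0.000132) and its interaction 0.24 (SE 0.067, adjusted p = 0.0202), which passed under 11 of 16 alternatives and was lost without control monolayer library 2, knockout monolayer library 2, control gel library 1, control gel library 2 or knockout gel library 1.

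XPOT had 237 and 252 CPM in control monolayers, 206 and 204 in knockout monolayers, 226 and 220 in control gels, and 214 and 223 in knockout gels. Its monolayer change was -0.25 (SE 0.048, adjusted p = 0.000163). GARS1, for glycine, had 401 and 423 CPM in control monolayers, 345 and 352 in knockout monolayers, 442 and 430 in control gels, and 406 and 422 in knockout gels, with a monolayer change of -0.24 (SE 0.046, adjusted p = 0.000187). Both were lowest in the knockout monolayers.

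EPRS1, which charges glutamate and proline, had 292 CPM in both control monolayers, 250 and 265 in knockout monolayers, 337 and 330 in control gels, and 331 and 344 in knockout gels. It changed by -0.18 with the knockout in monolayers (adjusted p = 0.00415), lost without knockout monolayer library 1, and rose with the gel in knockout cells by 0.39 (SE 0.046, adjusted p = 3.29e-08). MARS1, for methionine, had 203 and 212 CPM in control monolayers, 194 and 188 in knockout monolayers, 200 and 212 in control gels, and 230 and 221 in knockout gels. Its knockout changes of -0.12 and 0.13 did not pass in either culture, while their difference of 0.25 did (SE 0.069, adjusted p = 0.0217), except without control monolayer library 2, control gel library 1 or knockout gel library 1. NARS1, for asparagine, had changes of -0.11 and 0.10 that did not pass and an interaction of 0.21 (adjusted p = 0.0424) that passed under 9 of 16 alternatives, not with DESeq2 nor with upper-quartile factors. It was lost without control monolayer library 1, knockout monolayer library 1, control gel library 1, control gel library 2 or knockout gel library 2. WARS1, for tryptophan, which is also an interferon-induced gene, changed by 0.01 and 0.06 with the knockout and did not pass.

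Related genes outside the 40 were counted by list. Beside each count stand the shares over all tested genes, 9.60% higher and 9.60% lower with the knockout in monolayers, and 11.5% higher and 12.4% lower in gels. Of 17 tested genes for eIF2, its kinases and its other controls, 0 rose and 1 fell with the knockout in monolayers, and 4 rose and 1 fell in gels. For the rises in monolayers edgeR counted 0 at an unadjusted p under 0.05 and DESeq2 0. The fall in monolayers was EIF2AK4 (GCN2), the kinase that senses uncharged transfer RNA (log2 change -0.18, adjusted p = 0.019), and DESeq2 called 0 falls there. The rises in gels were led by EIF2B3, a subunit of the exchange factor that recycles eIF2, at 0.39 (SE 0.065, adjusted p = 2.13e-05), with EIF2S1, the phosphorylated subunit of eIF2, at 0.20 (adjusted p = 0.00179), and EIF2AK2 (PKR), the kinase that senses double-stranded RNA, at 0.22 (adjusted p = 0.00202).

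Of 19 tested other genes linked to ATF4, 4 rose and 6 fell in monolayers, and 2 rose and 6 fell in gels, where DESeq2 called 2 and 3. The growth factor VEGFA rose in monolayers (0.56, SE 0.047, adjusted p = 2.26e-11), and the autophagy receptor SQSTM1 rose in monolayers (0.34, adjusted p = 7.23e-07) and gels (0.26, adjusted p = 4.61e-05). The lipoprotein receptor VLDLR fell by 0.58 on the log2 scale in gels (adjusted p = 1.48e-07) and NIBAN1 by 0.29 in monolayers (adjusted p = 0.000547). SLC7A11, the cystine importer, changed by -0.52 in monolayers (adjusted p = 0.000576), and its interaction was 0.69 (adjusted p = 0.00252).

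Of the 16 other cytosolic synthetase and scaffold genes, 2 rose and 4 fell in monolayers and 7 rose and 2 fell in gels. CARS1, for cysteine, fell by 0.29 in monolayers (adjusted p = 8.65e-05), and FARSA, a subunit of the phenylalanine enzyme, rose by 0.28 in gels (adjusted p = 3.64e-05), both on the log2 scale. Among 16 mitochondrial synthetases, 0 rose and 1 fell in monolayers, where edgeR counted 1 rise at an unadjusted p under 0.05 and DESeq2 0. In gels 4 rose and 0 fell, with 0 falls at an unadjusted p under 0.05 and 0 by DESeq2, which called 1 rise.

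Of the 24 other serine, folate, proline and glutamate enzymes, 1 rose and 4 fell in monolayers and 5 rose and 7 fell in gels. DESeq2 called 0 rises and 3 falls, and 5 and 5. ASS1, which makes arginine's precursor from citrulline and aspartate, fell by 1.12 on the log2 scale in monolayers (adjusted p = 0.000478), and the aminotransferase GPT2 fell by 0.36 in gels (adjusted p = 0.000351). Of the 16 other amino acid transporters, 4 rose and 3 fell in monolayers, and 3 rose and 2 fell in gels. With DESeq2 these were 0 rises and 1 fall, and 1 and 1. The taurine transporter SLC6A6 fell by 0.35 in monolayers (adjusted p = 4.01e-06), and the glutamate transporter SLC1A1 fell by 0.91 in gels (adjusted p = 5.52e-05).

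The ATF6 and XBP1 arms of the unfolded protein response share their trigger in the endoplasmic reticulum with the eIF2 kinase EIF2AK3 (PERK). Of their 16 genes, 5 rose and 1 fell in monolayers, and 2 rose and 3 fell in gels. DESeq2 called 3 and 1, and 1 and 2. The chaperone partner DNAJC3 rose in both cultures (0.22, adjusted p = 0.00453, and 0.17, adjusted p = 0.021), and EDEM1, of the degradation branch, fell in both (-0.21, adjusted p = 0.00451, and -0.34, adjusted p = 7.15e-06). Of 18 genes of amino acid sensing by mTORC1, 1 rose and 1 fell in monolayers, and 1 rose and 5 fell in gels, among them WDR59, a subunit of the GATOR2 complex, at -0.48 (adjusted p = 2.26e-05). DESeq2 called 1 rise and 0 falls in monolayers, and 1 rise and 2 falls in gels.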

How the data were processed

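Messenger RNA of 8 MDA-MB-231 libraries (4 groups of 2) was sequenced from a stranded poly(A) kit, per the labels' protocols. Per the submitters' processing notes, the tools were FastQC 0.11.9, STAR 2.7.9a, featureCounts and R 4.1.1, with the genome build hg38. Neither the annotation nor the strand setting is named in the sources used here. The deposited values are raw counts per gene, made by the authors. Counts of overlapping or near-identical genes are therefore uncertain.

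Of 61228 genes, 15568 passed filterByExpr (minimum count 10), with 99.89% of all counts. They were tested with edgeR 4.0.16 in R 4.3.3 (TMM factors, robust quasi-likelihood test, group means over all 8 libraries, 4 residual degrees of freedom, common biological coefficient of variation 4.03%). The spread was shared across genes, so total degrees of freedom were 24.2 to 34.3 for the tested members. Two-sided p-values were adjusted over the 15568 genes (Benjamini-Hochberg) and called under 0.05. CPM are counts scaled by library size and TMM factor. Fits were tested on simulated data, in which changes of moderate size were recovered in genes of high count and missed in genes of low count. An uncalled change in a gene of low count therefore says little. The simulation gave all genes and groups the same spread, so it did not test the fits under unequal spread. In the data, the spread between a group's libraries (chi-squared per degree of freedom) was 2.48 in knockout monolayers and 6.03 in knockout gels. Exon lengths and overlaps come from GENCODE 29, and promoter windows from RefSeq.

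Members and lists were chosen with earlier results of these data known. Every member was accounted for. Full values went to the members of smallest adjusted p, at most 10 in each pairwise comparison and 6 for the interaction, and up to 3 genes of each other list qualified for naming in each. Not every gene that qualified is reported here. Alternatives were DESeq2 1.42.0, other scalings and filters, a replicate block, each library left out, and, chosen after seeing the data, a length and GC correction.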

Additional observations from a re-analysis of the deposited data

Results flagged for a closer look

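For 9 genes the knockout effect differed between gels and monolayers in the interaction test of edgeR, all in the positive direction. Of all tested genes, 2.67% were higher and 3.94% lower in that test. In log2 units the difference was 0.41 for CEBPG, 0.41 for PSAT1, 0.28 for SLC7A1, 0.27 for SARS1, 0.25 for MARS1, 0.24 for AARS1, 0.22 for SLC38A1, 0.22 for XPOT and 0.21 for NARS1. CEBPG was the 1 gene of these with called changes of opposite sign in the 2 cultures. PSAT1, SLC7A1, SARS1, AARS1, SLC38A1 and XPOT fell in monolayers and did not pass in gels, and MARS1 and NARS1 passed in neither. PSAT1 and CEBPG passed under all 16 alternatives, SARS1 and SLC7A1 under 14, MARS1 under 13, AARS1 and SLC38A1 under 11, and XPOT and NARS1 under 9. Leaving out 1 library was enough to lose each of the other 7 calls. The control monolayers, unlike the control gels, have a label that names no Cas9, so an effect of Cas9 and a difference between cultures cannot be told apart in these values.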

How the results depend on the processing

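DESeq2 in place of edgeR gave 8 members called in gels with the knockout (5 higher, 3 lower), 13 with the gel in control cells (2 lower) and 2 lower with the gel in knockout cells. Over all genes it called 800 higher and 941 lower in monolayers, 1195 lower in gels, 1441 higher and 923 lower with the gel in control cells, 1784 lower with the gel in knockout cells, and 242 higher and 312 lower in the interaction. With library size alone, 10 members were higher and 13 lower with the gel in control cells, and over all genes 1239 and 2801. The length and GC correction gave 13 members higher with the knockout in gels, 10 lower with the gel in control cells, 2 lower with the gel in knockout cells and 16 in the interaction. Counts over all genes with this correction, or with the replicate block below, are not reported here. Across genes, the knockout change in monolayers had a Spearman rho of -0.166 with exon length. Leaving out each library in turn gave 18 to 24 members called in monolayers (2 to 4 higher, 14 to 20 lower) and 5 to 15 in gels (3 to 9 higher, 2 to 6 lower). With the gel it gave 11 to 23 in control cells (10 to 16 higher, 1 to 9 lower), 23 to 28 in knockout cells (21 to 24 higher, 1 to 4 lower), and 3 to 11 in the interaction. The corresponding ranges over all genes were 758 to 1588 higher and 1066 to 1756 lower in monolayers, 863 to 2073 and 1232 to 1950 in gels, 1273 to 2601 and 799 to 2070 with the gel in control cells, 2366 to 3286 and 1905 to 2799 in knockout cells, and 122 to 496 and 285 to 767 in the interaction. The cause of these shifts was not tested. Called changes of single members that kept their direction and passed under all 16 alternatives were 14 of 23, 3 of 14, 11 of 22, 20 of 28 and 2 of 9 in the 5 comparisons in the order above, and no called change reversed. Members with an uncalled change whose 95% interval spans 0 were given no direction and were kept out of that count of reversals: 9, 21, 12, 9 and 22 of them, of which 1, 3, 4, 0 and 5 passed under some alternative.

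The replicate numbers did not pair libraries: deviations of same-numbered libraries had correlations of -0.063 to 0.082 between groups. With the replicate block, 5 members were higher and 19 lower with the knockout in monolayers, 9 and 6 in gels, 16 and 8 with the gel in control cells, 24 and 5 in knockout cells, and 10 and 0 in the interaction. Depth limits ASNS, STC2 and NUPR1, with at most 60, 27 and 18 counts in a library, and leaves CBS without a test.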
